A study of Mus musculus with 12 samples.

Results

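Transcript levels of 9 genes of the Notch pathway, the receptors Notch1 and Notch2, the ligands Dll1, Dll4 and Jag1 and the Hes and Hey factors Hes1, Hes2, Hes6 and Hey1, were described in mouse ileum and colon with and without Slc39a8 in the intestinal epithelium. The genes were chosen by name, with earlier results of these libraries known, out of 53715 gene identifiers in the table of expected counts. All 9 passed the filter on low counts, which kept 16558 genes. The libraries came from mucosal RNA of 8-week-old male C57BL/6J mice, 3 mice in each of 4 groups: ileum control, ileum KO, colon control and colon KO. Controls are given in the labels as Slc39a8-fl/fl, in which exons of Slc39a8 are flanked by loxP sites, and KO mice as Slc39a8-fl/fl:Villin-Cre, in which Cre is driven by the Villin promoter and acts in epithelial cells. The study's methods allow wild-type and Cre-only animals among the controls as well, so not every control need carry the genotype that the labels name. Whether ileum and colon were taken from the same mice was not given in the sources used here. In these bulk samples, fewer cells of a type and less RNA per cell cannot be told apart.

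Notch receptors are cleaved when a ligand on a neighbouring cell binds them, and the released intracellular part joins the DNA-binding protein Rbpj in the nucleus and switches on genes such as Hes1. Hes proteins are repressors of transcription, and in the intestinal epithelium Hes1 represses Atoh1, the factor that commits a progenitor to the secretory lineage of goblet, Paneth, enteroendocrine and tuft cells. Cells in which Notch is active become absorptive, while secretory cells carry Delta-like ligands on their surface and signal to their neighbours. Notch1 and Notch2 act in the crypt, where the epithelium is renewed. Slc39a8, the deleted gene, encodes ZIP8, an importer of manganese and zinc.

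The promoters of the 3 ligand genes are shown because these genes differed in opposite directions between the tissues and because all 3 held the same short motif. The windows run from 250 bases before to 50 bases after an annotated transcription start (RefSeq, GRCm38.p6) and are written in the direction of the gene. Capitals mark CACGCG, read on either strand (CGCGTG on the other), one of the sites that Hes proteins bind in vitro.
Dll1 (chr17:15376883-15377182, minus strand): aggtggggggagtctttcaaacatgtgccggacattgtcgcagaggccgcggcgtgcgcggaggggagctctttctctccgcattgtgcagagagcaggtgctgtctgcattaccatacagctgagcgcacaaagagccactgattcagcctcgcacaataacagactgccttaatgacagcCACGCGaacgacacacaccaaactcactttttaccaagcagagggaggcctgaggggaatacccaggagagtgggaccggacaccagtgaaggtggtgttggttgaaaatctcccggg
Dll4 (chr2:119325534-119325833, plus strand): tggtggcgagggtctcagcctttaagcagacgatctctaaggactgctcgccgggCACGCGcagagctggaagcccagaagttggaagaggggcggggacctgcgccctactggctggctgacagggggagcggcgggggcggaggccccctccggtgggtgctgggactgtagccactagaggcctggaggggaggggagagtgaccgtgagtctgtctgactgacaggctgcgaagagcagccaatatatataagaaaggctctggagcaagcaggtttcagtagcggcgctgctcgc
Jag1 (chr2:137116471-137116770, minus strand): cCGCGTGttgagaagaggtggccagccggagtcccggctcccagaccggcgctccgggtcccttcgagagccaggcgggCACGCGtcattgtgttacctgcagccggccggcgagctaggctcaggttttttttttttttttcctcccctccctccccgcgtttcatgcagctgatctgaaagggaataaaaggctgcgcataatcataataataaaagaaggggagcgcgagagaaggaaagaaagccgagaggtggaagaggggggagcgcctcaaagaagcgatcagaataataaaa
The match begins 68 bases before the start in Dll1 and 195 bases before it in Dll4, while Jag1 holds 2 matches, 249 and 171 bases before the start. A second annotated start of Dll1 (chr17:15375774-15376073) held none. The 6 member genes with a promoter sequence at hand had 8 promoters. Hes1, Hes2 and Hey1 had no promoter sequence at hand, so none of the motifs was searched for in them. Of these 8, 4 held the motif, in 4 genes, the fourth being Notch2. The share was 9.27% of all 32851 promoters. It was 17.2% of the 11815 promoters whose GC content lay in the range of the members, from 55.7% to 73%. The N box CACNAG, another Hes-bound motif that no CACGCG match can also be, was found in 5 of the 8 promoters, in 5 genes, and in 42.5% of all promoters. The Rbpj core TGGGAA was in 0 of the 8 promoters and in 25.6% of all promoters. These are counts of letters in a short window and do not show that a factor was bound there.

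Library totals ran from 16749138 to 27903083 expected counts. The targeted gene was lower in KO libraries of both tissues: Slc39a8 was at 8.38, 5.22 and 6.58 CPM (counts per 1000000 of the library total, scaled by the trimmed mean of M values) in ileum control against 4.35, 2.62 and 2.79 in ileum KO, and at 20.8, 20.5 and 20.04 CPM in colon control against 7.34, 11.5 and 7.92 in colon KO. Neither tissue had overlapping genotypes, and over both tissues the level in KO was 0.457 times that in control. Ileum control 3 and ileum KO 1 held almost no muscle: the 5 smooth muscle markers summed to 31.6 and 18.3 CPM there and to between 1645 and 2371 CPM in the other 4 ileal libraries, and none of the markers was at 0. The 5 fibroblast markers were low there too, at 34.7 and 33.8 CPM in sum against 265 to 525 CPM. In those libraries the 4 crypt stem cell markers summed to 808 and 576 CPM against 142 to 219 CPM in the other ileal libraries, a sum made up mostly of Olfm4 (751 and 523 CPM against 105 to 181 CPM), while Smoc2 of the same list was at 32.5 and 32.3 CPM against 31.3 to 34.7 CPM. The 3 enteroendocrine markers summed to 180 and 149 CPM against 57.2 to 72.4 CPM. Ileum KO 2 held colon transcripts, with the colon marker Car1 at 2630 CPM against 3.40 to 143 CPM in the other ileal libraries and 14873 to 27102 CPM in colon. Aqp8, another colon marker, was at 67.3 CPM in ileum KO 2, within the colonic range of 20.5 to 190 CPM. The other ileal libraries had at most 0.36 CPM of it. The part of these differences between libraries in the results was not tested beyond the values with and without them.

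The first comparison asked where along the intestine each gene was higher. In control mice Jag1 and Hes1 were higher in colon, by 2.31 and 2.13 times, and Dll1, Dll4, Hes2 and Hes6 were lower in colon, by 2.76, 4.63, 5.45 and 1.59 times. Among all genes tested, 16.2% were higher and 19.6% lower in colon at an edgeR adjusted p under 0.1, against 2 of 9 (22.2%) and 4 of 9 (44.4%) here. In KO mice, whose libraries share none with the control comparison, the same 6 genes were called in the same directions and Notch2 was also lower in colon, so that 2 of 9 were higher and 5 of 9 lower, beside a background of 17.1% higher and 20% lower. The median log2 difference of the 9 genes was -0.31 in control mice and -0.59 in KO mice, and that of all genes was 0.02 and 0.01. With scaling by library size alone the background itself moved, to 66.4% higher among the genes called in control mice and 70.8% in KO mice, against 45.3% and 46.1% (58.3% in KO mice with upper-quartile scaling), and the median of all genes shifted up by 0.22 and 0.27 (log2). Since the genes were chosen by name with earlier results known, these counts describe the list and are not independent evidence.

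Markers of the epithelium, the crypt and Paneth cells moved with the tissue as well. All 5 epithelial markers were called lower in colon in both genotypes, with sums of 15566 to 20259 CPM over the ileal and 7787 to 9016 CPM over the colonic libraries. In control mice the log2 difference was -1.10 for Epcam and -1.96 for Vil1. Of the 4 crypt stem cell markers, 3 were called lower in colon in both genotypes, Lgr5 (-1.76 in control mice), Smoc2 (-1.76) and Olfm4. The fourth, Ascl2, was called in neither. Lgr5 was at 6.38, 3.44 and 20.5 CPM in ileum control, with the highest value in the muscle-poor library. In colon control it was at 2.66, 4.03 and 2.26 CPM, overlapping. The 4 markers summed to 142 to 808 CPM in ileum and 11.3 to 16.6 CPM in colon. Most of the ileal sum was Olfm4, at 105 to 751 CPM. In colon Olfm4 was at most 0.12 CPM and at 0 in some libraries. Smoc2 was at 31.3 to 34.7 CPM in ileum and 8.08 to 11.9 CPM in colon. Of the 4 Paneth cell markers 3 were called lower in both genotypes, and the 4 summed to 2735 to 9377 CPM in ileum and 13.4 to 368 CPM in colon. Other secretory genes did not all move this way. Of the 3 enteroendocrine markers, 2 were called higher in colon in control mice and 3 in KO mice. They summed to 57.2 to 180 CPM in ileum and 289 to 469 CPM in colon. Among the 4 goblet cell markers, Muc2 was called higher and the other 3 lower in both genotypes. Of the 3 secretory lineage factors tested, Spdef was called higher in both genotypes and Atoh1 in KO mice only. The part of these cell types in the tissue differences of the 9 genes was not tested.

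**Figure D1:**
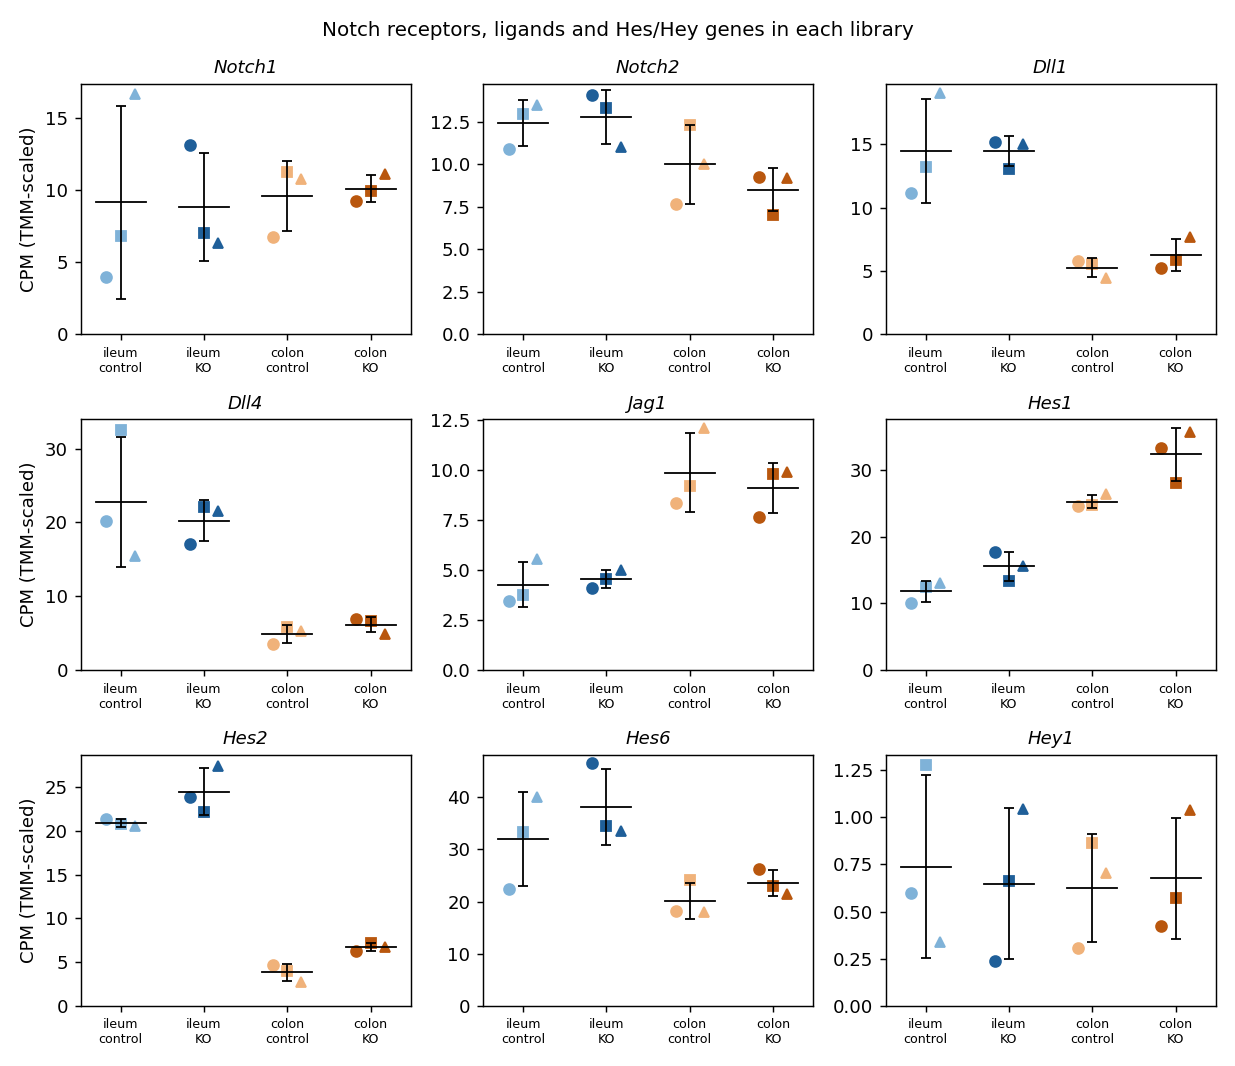
CPM (y axes, starting at 0) of the 9 genes in each of the 12 libraries, by group; circles, squares and triangles are replicates 1, 2 and 3, and lines and bars are mean ± SD of 3 mice. Dll1, Dll4, Jag1, Hes1 and Hes2 show no overlap between the 6 ileal and the 6 colonic libraries, while Notch1, Notch2, Hes6 and Hey1 overlap.

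Among the receptors, Notch1 (chromosome 2, 26457903 to 26516663 of GRCm38, minus strand) varied more between ileal libraries than between tissues. It was at 3.92, 6.83 and 16.6 CPM in ileum control and 13.1, 6.99 and 6.30 CPM in ileum KO, where the highest value of each group belonged to the library without muscle. Colon control stood at 6.75, 11.2 and 10.7 CPM and colon KO at 9.23, 9.94 and 11.1 CPM, within the ileal range. The log2 difference of colon over ileum was 0.06 ± 0.45 (SE, n = 3 per group) in control mice and 0.20 ± 0.45 in KO mice, neither past the threshold (edgeR adjusted p = 0.937 and 0.771). Without both muscle-poor libraries it was 0.80 in control mice and 0.61 in KO mice, and then passed (edgeR adjusted p = 0.0388 and 0.0928). Notch2 (chromosome 3, 98013527 to 98150361, plus strand) was steadier, at 10.9, 12.9 and 13.5 CPM in ileum control and 14.1, 13.3 and 10.98 CPM in ileum KO. In colon it was at 7.67, 12.3 and 10.02 CPM in controls and at 9.27, 7.04 and 9.16 CPM in KO, so that the genotypes overlapped in both tissues and the tissues overlapped in controls only. Its log2 difference was -0.31 ± 0.20 in control mice (edgeR adjusted p = 0.281) and -0.59 ± 0.21 in KO mice (edgeR adjusted p = 0.0516), and the call in KO mice was lost without ileum KO 1 (-0.52), ileum KO 2 (-0.56) or colon KO 2 (-0.47), with upper-quartile scaling (-0.45), with scaling by library size (-0.32) and with no filter on low counts.

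**Figure D2:**
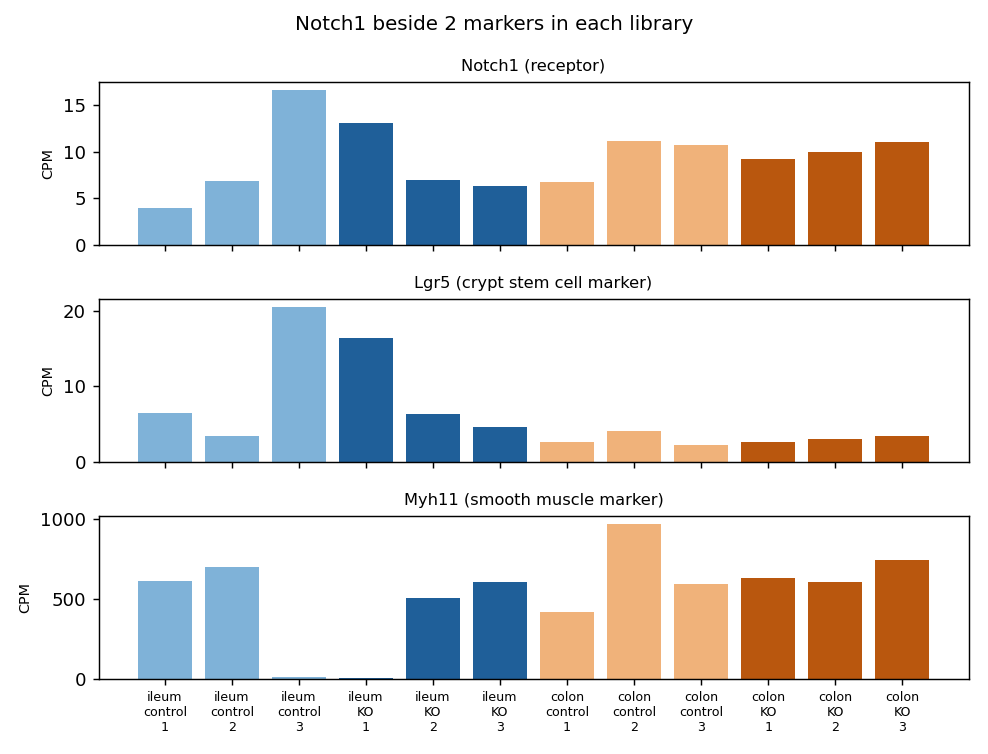
CPM (y axes, starting at 0) of Notch1, the crypt stem cell marker Lgr5 and the smooth muscle marker Myh11 in each of the 12 libraries. The 2 libraries with the highest Notch1, ileum control 3 at 16.6 and ileum KO 1 at 13.1, also have the highest Lgr5 and almost no Myh11.

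The muscle-poor libraries stood outside the range of the other 4 ileal libraries for 6 of the 9 genes. Notch1, Notch2, Dll1 and Hes6 were above it in both and Dll4 and Hey1 below it, while Jag1, Hes1 and Hes2 were not outside it together. For comparison, 23.2% of all genes tested were above and 27.2% below in the same sense. Lgr5, a receptor of crypt stem cells, was at 20.5 and 16.3 CPM in these libraries against 3.44 to 6.38 CPM in the others, and Lyz1, a Paneth cell lysozyme, at 6355 and 4739 CPM against 1838 to 2457. The B cell gene Ms4a1 was also higher there, at 9.60 and 11.9 CPM against 0.61 to 0.76 CPM. The part of these cell types in the Notch1 level was not tested.

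The ligands separated the tissues more clearly. Dll4 (chromosome 2, 119325784 to 119335962, plus strand), which is carried by secretory cells of the crypt and by endothelium, was at 20.2, 32.5 and 15.5 CPM in ileum control and at 17.04, 22.1 and 21.6 CPM in ileum KO. In colon it was at 3.58, 5.85 and 5.27 CPM in controls and 6.87, 6.62 and 4.93 CPM in KO, so that every colonic library lay below every ileal one. The log2 difference was -2.21 ± 0.29 in control mice (edgeR adjusted p = 0.000179) and -1.72 ± 0.28 in KO mice (edgeR adjusted p = 0.000923). The 7 endothelial markers summed to 13.2 to 25.6 CPM in ileum and 17.3 to 36.2 CPM in colon, overlapping and with none at 0, but the members differed. In control mice Tie1 was called lower in colon (log2 difference -1.23), as Dll4 was, and Tek (1.33) and Lyve1 (0.67) were called higher, while in KO mice Tek (1.10) and Pecam1 (1.02) were called higher and none lower. An antisense transcript, Gm14207, overlaps Dll4 with up to 89 counts in a library, and since it was not given in the sources used here whether the counting used strand, reads of the pair may not be separable.

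Dll1 (chromosome 17, 15367354 to 15376872, minus strand), the other Delta-like ligand of crypt secretory cells, followed the same order. Ileal libraries were at 11.2, 13.2 and 19.1 CPM in controls and 15.2, 13.1 and 15.1 CPM in KO, and colonic libraries at 5.78, 5.56 and 4.42 CPM in controls and 5.23, 5.85 and 7.71 CPM in KO. No colonic library reached the lowest ileal one. The log2 difference was -1.46 ± 0.23 in control mice and -1.20 ± 0.23 in KO mice (edgeR adjusted p = 0.000724 and 0.00247). Jag1 (chromosome 2, 137081456 to 137116644, minus strand), a ligand of the Serrate type, ran the other way. It was at 3.46, 3.77 and 5.56 CPM in ileum control, 4.11, 4.53 and 5.02 CPM in ileum KO, 8.34, 9.20 and 12.1 CPM in colon control and 7.67, 9.78 and 9.91 CPM in colon KO. Every colonic library was above every ileal one, and the log2 difference was 1.21 ± 0.24 in control mice and 1.001 ± 0.235 in KO mice (edgeR adjusted p = 0.00287 and 0.00827). Across all genes, 13.4% had every colonic library above every ileal one and 14.7% the reverse.

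The balance of the ligands within a library does not depend on the scaling between libraries. Per kilobase of exon, Dll4 made up 42.4% to 69.1% of the summed Dll1, Dll4 and Jag1 signal in ileum control and 50.7% to 59.7% in ileum KO, and 24.9% to 34.4% in colon control and 26.6% to 41.1% in colon KO. Jag1 made up 5.30% to 10.1% in ileum control and 8.08% to 8.58% in ileum KO, against 35.8% to 46.2% in colon control and 30.3% to 35.4% in colon KO. Dll1 kept a share that overlapped between tissues, from 25.6% to 47.6% in ileum control and from 23.3% to 36.7% in colon control. The ratio of Dll4 to Jag1 was 8.70 ± 4.41 (SD, n = 3) in ileum control and 6.72 ± 0.59 in ileum KO, and 0.757 ± 0.177 in colon control and 1.04 ± 0.30 in colon KO. The summed signal of the 3 ligands was also smaller in colon, at 4.21 ± 0.42 CPM per kb in controls against 10.1 ± 1.9 CPM per kb in ileum.

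**Figure D3:**
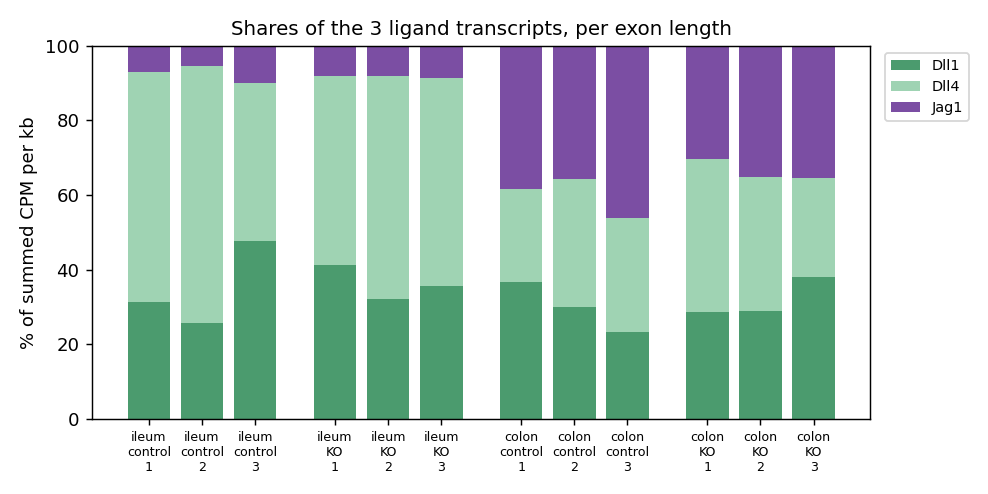
Shares of Dll1, Dll4 and Jag1 in their summed CPM per kb of exon (y axis, 0 to 100%) for each of the 12 libraries (one bar each). Jag1 takes 5.30% to 10.1% in the ileal libraries and 30.3% to 46.2% in the colonic ones.

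Hes factors, like the ligands, differed between the tissues in both directions. Hes1 (chromosome 16, 30064384 to 30067796, plus strand), the main Notch target in the epithelium, was at 10.04, 12.5 and 13.0 CPM in ileum control and 17.8, 13.4 and 15.6 CPM in ileum KO. In colon it was at 24.6, 24.8 and 26.4 CPM in controls and 33.4, 28 and 35.7 CPM in KO. All colonic libraries were above all ileal ones, with a log2 difference of 1.09 ± 0.16 in control mice and 1.06 ± 0.15 in KO mice (edgeR adjusted p = 0.000329 and 0.000401). Hes2 (chromosome 4, 152158867 to 152162469, plus strand), a less studied member of the family, was the reverse and had the largest estimated tissue difference of the 9 genes in both genotypes, followed by Dll4. It was at 21.3, 20.8 and 20.6 CPM in ileum control and 23.8, 22.1 and 27.4 CPM in ileum KO, and at 4.71, 4.03 and 2.77 CPM in colon control and 6.31, 7.14 and 6.76 CPM in colon KO. Its log2 difference was -2.45 ± 0.19 in control mice and -1.86 ± 0.19 in KO mice (edgeR adjusted p = 4.05e-06 and 2.53e-05).

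Per kilobase of exon, Hes1 was at 0.609 to 0.819 times the level of Hes2 in ileum control and 0.738 to 0.965 times in ileum KO, whereas in colon it was at 6.76 to 12.3 times the level of Hes2 in controls and 5.08 to 6.85 times in KO. Hes6 (chromosome 1, 91411483 to 91414038, minus strand), which counters Hes1 in other tissues, was the highest of the 9 genes per kilobase in ileum, at 17.7 ± 5.0 CPM per kb in controls and 21.1 ± 4.0 in KO, and stood above the next gene, Hes2, without overlap. In colon Hes1 led with 12.4 ± 0.5 CPM per kb in controls and 15.9 ± 1.9 in KO, but its range overlapped that of Hes6 in both. Hes6 was at 22.4, 33.4 and 40.2 CPM in ileum control and 46.6, 34.5 and 33.6 CPM in ileum KO, against 18.3, 24.2 and 18.1 CPM in colon control and 26.2, 22.9 and 21.5 CPM in colon KO. The tissues overlapped through ileum control 1, and the log2 difference of -0.67 ± 0.22 in control mice and -0.70 ± 0.22 in KO mice (edgeR adjusted p = 0.0401 and 0.0327) depended on the libraries. It lost its call in control mice without ileum control 3 (-0.49), colon control 1 (-0.60) or colon control 3 (-0.62), and in KO mice without ileum KO 1 (-0.53) or colon KO 3 (-0.64), in both with scaling by library size (-0.46 and -0.44), and in control mice with the libraries of those 2 groups alone.

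Hey1 (chromosome 3, 8663359 to 8667256, minus strand), a target of Notch best known from vessels, was the lowest of the 9 genes per kilobase in every group. Its counts were between 4 and 25 in a library and its level was between 0.24 and 1.28 CPM, and every group overlapped every other. The log2 difference between tissues was -0.22 ± 0.65 in control mice and 0.05 ± 0.64 in KO mice, with SEs larger than the differences.

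At the lower end of the order, the levels per kilobase were close together. In ileum control the order was Hes6, Hes2, Dll4, Hes1, Dll1, Notch2, Jag1, Notch1 and Hey1, and Hes2, Dll4 and Hes1 overlapped as neighbours, as did Jag1, Notch1 and Hey1. In colon control it was Hes1, Hes6, Jag1, Hes2, Dll4, Dll1, Notch2, Notch1 and Hey1, and there every pair of neighbours overlapped but Hes6 with Jag1 and Notch1 with Hey1. Notch1 and Notch2 were below Hes1 and Hes6 in both tissues, with Notch1 at 0.642 ± 0.468 and 0.672 ± 0.172 CPM per kb in ileum and colon control and Notch2 at 1.15 ± 0.13 and 0.928 ± 0.215.

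**Figure D4:**
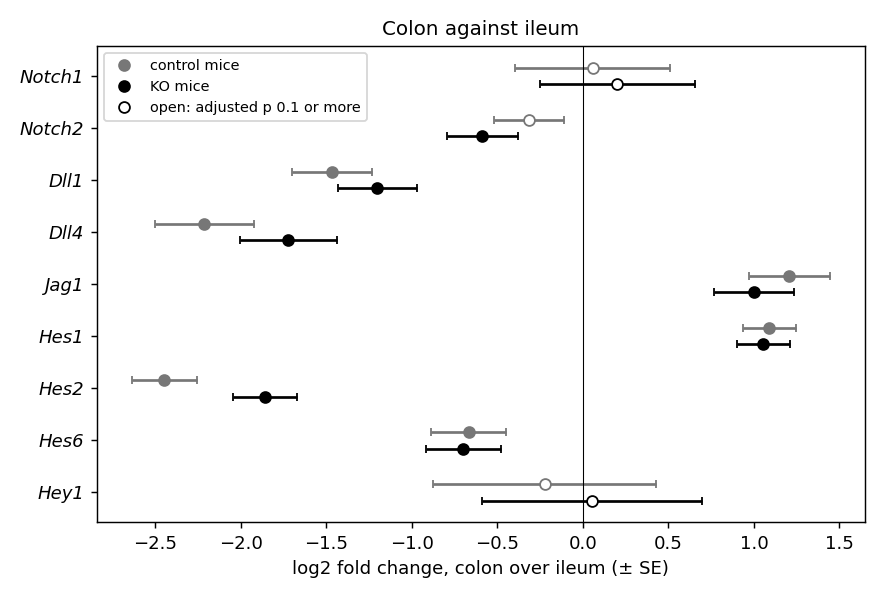
Log2 fold change of colon over ileum (x axis, ± SE from the fit) for the 9 genes in control mice (grey) and KO mice (black); filled points passed an edgeR adjusted p under 0.1. Jag1 and Hes1 lie right of 0 and Dll1, Dll4, Hes2 and Hes6 left of it in both genotypes.

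The second comparison asked what changed when Slc39a8 was deleted in the epithelium. None of the 9 genes passed the threshold in ileum, in colon, over both tissues or in the difference between tissues, and 0% of all genes tested did so in each of these 4 comparisons by edgeR's quasi-likelihood test. At an unadjusted p under 0.05 the counts of the 9 genes were 1, 2, 2 and 1 in that order, beside 252, 385, 641 and 169 of all 16558 genes. DESeq2 called 2 genes in ileum, 0 in colon, 4 over both tissues and 1 in the difference, and limma-voom called 1 in ileum and 1 over both, with none of the 9 among them. Slc39a8 had an edgeR adjusted p of 0.382 over both tissues, and over 22 alternatives its adjusted p ran from 1.25e-05, by DESeq2, to 1, with 5 of them past the threshold.

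Hes1 and Hes2 were the genes with the smallest p-values of the 9. For Hes1 every KO library was above every control library in ileum, 13.4 to 17.8 against 10.04 to 13.0 CPM, and in colon, 28 to 35.7 against 24.6 to 26.4 CPM. The log2 difference of KO over control was 0.39 ± 0.16 in ileum, 0.36 ± 0.15 in colon and 0.37 ± 0.10 over both (edgeR unadjusted p = 0.00327, adjusted p = 0.998). For Hes2 the KO libraries were likewise above the controls in ileum, 22.1 to 27.4 against 20.6 to 21.3 CPM, and in colon, 6.31 to 7.14 against 2.77 to 4.71 CPM. Its log2 difference was 0.23 ± 0.18 in ileum, 0.81 ± 0.19 in colon and 0.51 ± 0.15 over both (edgeR unadjusted p = 0.00501, adjusted p = 0.998). The difference between the tissues, 0.59 ± 0.26 for Hes2, did not pass the threshold (edgeR unadjusted p = 0.0440, adjusted p = 1).

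Such separation without overlap, KO above control, was seen for 2 of the 9 genes in ileum, in colon and in both, beside 2.13% of all genes in ileum, 6.98% in colon and 0.236%, or 39 genes, in both. After adjustment over all genes neither difference passed the threshold. The sign was positive for both genes in all 22 alternatives of the fit over both tissues, where the log2 difference ran from 0.33 to 0.45 for Hes1 and from 0.39 to 0.59 for Hes2 and the adjusted p was never below 0.339. Since the genotypes of both genes did not overlap in either tissue, leaving out a single library could hardly turn the sign.

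**Figure D5:**
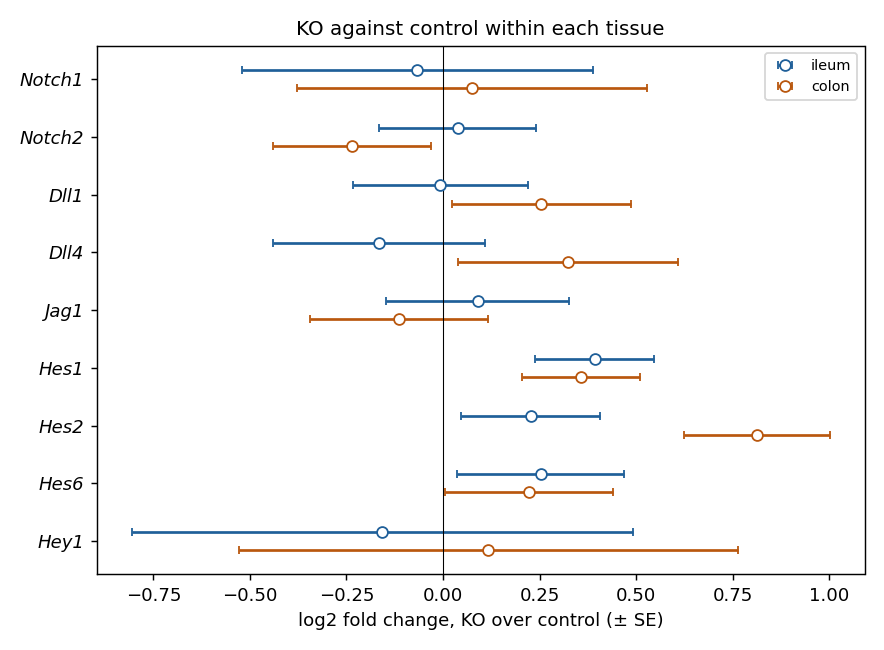
Log2 fold change of KO over control (x axis, ± SE from the fit) for the 9 genes in ileum (blue) and colon (orange); no point passed an edgeR adjusted p under 0.1. Hes1, Hes2 and Hes6 lie right of 0 in both tissues, Hes2 in colon farthest at 0.81, and the receptors and ligands lie on both sides.

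Hes6 had a log2 difference of 0.24 ± 0.15 over both tissues, with overlapping genotypes in each. The receptors and ligands were at -0.10 (Notch2) to 0.12 (Dll1) over both tissues with SEs of 0.14 to 0.31, and their genotypes overlapped in both tissues. In colon alone Dll4 was at 0.32 ± 0.28, Dll1 at 0.25 ± 0.23 and Notch2 at -0.24 ± 0.21, and single libraries moved each of them. With each library left out Dll4 ran from 0.14 (without colon control 1) to 0.48, Dll1 from 0.09 (without colon KO 3; 0.16 without colon control 3) to 0.35 and Notch2 from -0.39 (without colon control 1) to -0.06 (without colon control 2; -0.12 without colon KO 2). For Notch1 in ileum the value turned with the muscle-poor libraries, one of which is a control and one a KO: it was -0.07 ± 0.45 with all libraries, 0.71 without ileum control 3 and -0.47 without ileum KO 1.

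The factors of the secretory lineage were set beside these values, since Hes1 acts on Atoh1. In colon Atoh1 was at 37.5, 32.3 and 26.7 CPM in controls and 39.0, 41.7 and 44.1 CPM in KO, and Spdef, a factor of goblet cell maturation, at 39.6, 54.7 and 31.0 CPM in controls and 69.4, 57.8 and 68.8 CPM in KO. For both genes every colon KO library was thus above every colon control, as it was for 6.98% of all genes tested. The log2 differences were 0.37 ± 0.24 for Atoh1 and 0.64 ± 0.21 for Spdef, and neither passed the threshold (edgeR adjusted p = 1 for both). In ileum Atoh1 overlapped, at 19.8, 16.4 and 33.3 CPM in controls and 31.99, 22.03 and 26.04 CPM in KO, with its highest values again in the muscle-poor libraries of each genotype. The 4 goblet cell markers summed to 6480 to 7981 CPM in colon control and 6545 to 9280 CPM in colon KO, overlapping and with none at 0, but the values of single members differed in sign. Tff3, a trefoil peptide of goblet cells, was at 815, 630 and 595 CPM in colon control and 577, 534 and 420 CPM in colon KO, every KO library below every control (log2 difference -0.41 ± 0.17, edgeR unadjusted p = 0.0319, adjusted p = 1). Muc2, the main secreted mucin, was at 2767, 3623 and 2303 CPM in controls and 4474, 3484 and 3703 CPM in KO, overlapping (0.42 ± 0.20, edgeR unadjusted p = 0.0592, adjusted p = 1). The part of goblet cells in the Hes values was not tested. Gfi1 overlapped between genotypes in both tissues, and Neurog3, at most 19 counts in a library, was not tested.

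The rest of the pathway was taken from a list of 57 genes, of which 50 were tested and 7 did not pass the filter. Between the tissues 7 of the 50 were higher (14%) and 11 lower (22%) in colon in control mice, close to the 16.2% and 19.6% of all genes, with a median log2 difference of -0.01 against 0.02. In KO mice the counts were again 7 and 11, and 13 genes were called in both. With scaling by library size alone, 11 were higher and 5 lower in each genotype. No gene of the list was called in a genotype comparison. The shares of the list thus lay near those of all genes.

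Within it, the parts of the pathway differed. Of 10 genes of receptor cleavage, 5 were lower in colon of control mice, among them the sheddases Adam10 and Adam17, the convertase Furin and the gamma-secretase subunit Ncstn. In the same comparison 3 were higher, Aph1a, Aph1b and Aph1c, which encode alternative subunits of the same protease. Of 10 negative regulators, 4 were lower and 0 higher. Numb, which promotes removal of Notch from the membrane, was at 98.2 ± 9.5 CPM in ileum and 52.3 ± 4.7 CPM in colon of controls (log2 difference -0.91 ± 0.12). Nrarp, a Notch target that limits the signal, was at 26.7 ± 11.6 and 13.3 ± 3.2 CPM (-1.01 ± 0.30), a call lost with scaling by library size (-0.81, edgeR adjusted p = 0.108). Dtx1, a ubiquitin ligase of the Deltex family, was at 5.56 ± 1.47 and 2.15 ± 0.35 CPM (-1.37 ± 0.36), and was not called in KO mice. Nrarp shared with Notch1 its higher values in the muscle-poor ileal libraries, 37.2 and 30.3 CPM against 14.2 to 28.5 CPM.

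Of 8 genes for corepressors and related factors, 1 was higher and 1 lower. Tle3, a corepressor that Hes proteins recruit, was at 166.5 ± 9.9 CPM in ileum control and 51.2 ± 3.9 CPM in colon control (log2 difference -1.70 ± 0.14), while its relative Tle2 was higher in colon, 5.39 ± 0.89 against 1.57 ± 0.38 CPM (1.79 ± 0.28). Rfng, a glycosyltransferase that modifies Notch, was lower in colon, 11.6 ± 0.5 against 28.6 ± 4.1 CPM (-1.30 ± 0.15), the only 1 of 5 such genes to be called in control mice. Neurl1b, a ubiquitin ligase for ligands, was higher in colon, 49.99 ± 9.64 against 29.4 ± 5.9 CPM (0.77 ± 0.20), and so was the coactivator Maml2, 2.47 ± 0.28 against 1.40 ± 0.34 CPM (0.81 ± 0.33). The ligand-like Dlk1 and Aph1c, also called higher, were at or below 1.53 CPM in every control library. The call of Dlk1 was lost without colon control 1. Those of Aph1c and Maml2 were lost in 11 and 12 of 23 alternatives, and neither was called in KO mice.

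For each of the 9 genes the tested genes with the closest pattern over the 12 libraries were found, as the root mean square difference of centred log2 CPM. This is a description of likeness over libraries that share a tissue and says nothing of shared control. The closest to Hes1 was Myrip (0.12 log2 units, with Hes1 itself spread by an SD of 0.58), followed by Mrs2 (0.14). Hes2 had less close neighbours, Prodh and Sytl3 (0.27 each, SD 1.13). Notch1 was followed by Pctp (0.18) and Ephb4 (0.19), Notch2 by Pik3cb (0.12) and Gle1 (0.16), Dll1 by Asf1b (0.13) and Sec24d (0.15), Dll4 by Ddhd1 (0.19) and C530008M17Rik (0.24) and Jag1 by Zswim6 and Ube2o (0.14 each). Hes6 was closest to Srp68 (0.11) and U2af1 (0.14) and Hey1 to Adam19 (0.19) and Ggta1 (0.29). None of these genes was another of the 9 or on the list of the rest of the pathway.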

How the data were processed

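RNA of intestinal mucosa was reverse transcribed with oligo-dT and read by paired-end sequencing, with 3 libraries per group. The authors aligned the reads to mm10 with STAR, per the labels, and deposited 1 table with an expected count per Ensembl gene and library, not normalized. The study's reporting summary names uniquely mapped reads, duplicate removal by UMI-tools and counting by featureCounts, but the deposited columns carry the heading expected count and 93.7% of their values were whole, so it is not certain that this tool made the table. The strand setting was not found in the labels or methods. The values were rounded and 53620 of 53715 identifiers were matched to symbols of GENCODE M21. The 92 spike-in lines summed to 0 and were left out.

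Genes were kept by edgeR's filter on the 4 groups and scaled by TMM factors, and 1 quasi-likelihood model of the 4 groups (edgeR 4.0.16, R 4.3.3) gave each contrast. The genotype effect over both tissues came from a model of tissue and genotype. P-values were adjusted over all genes tested (Benjamini-Hochberg) and called below 0.1, the threshold of the study. SEs are the log2 fold change divided by the root of F. CPM per kb uses the union of exons, and log2 CPM a prior count of 2. The step was tested on simulated data. DESeq2 1.42.0, limma-voom 3.58.1, other scalings and filters, a replicate block, a muscle term and each library left out were tried.

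The members and lists were chosen with earlier results of these data known. The rule for named genes took the 9 members, Slc39a8, other pathway genes called in a genotype comparison, the 5 largest tissue differences in each direction in control mice among those called, and the 2 nearest patterns of each member. Others were named where a count was 5 or fewer, after their values were seen. Each library was 1 mouse, so p-values measure the spread between mice and preparations together. Some genes of the lists were counted but are not reported here by name.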

Additional observations from a re-analysis of the deposited data

How the results depend on the processing

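Dll1, Dll4, Jag1, Hes1 and Hes2 kept their direction and their call in both tissue comparisons under all 23 alternatives, and no Notch or Hes gene was called in a genotype comparison under any. The tissues did not overlap for these 5 genes, so leaving out a single library could hardly turn their direction. Counts of the 9 genes called ran from 5 to 6 in control mice and from 5 to 7 in KO mice with each library left out. The number of other pathway genes called in control mice, 18, was 11 with the libraries of those 2 groups alone, and in KO mice it ran from 10 to 21 with each library left out (10 without colon KO 1, 11 without ileum KO 3). The cause was not tested, though both kinds of fit use fewer samples.

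Notch1 was called higher in colon without the muscle-poor libraries and with the muscle score as a term (0.67 in control mice, 0.78 in KO mice), and its value in control mice ran from -0.30 to 0.81 with each library left out. In ileum, KO over control of Notch1 was 0.29 without the muscle-poor libraries, 0.094 with the replicate block and -0.47 to 0.71 with each library left out. Hey1 in control mice was 0.052 with scaling by library size and -0.60 to 0.44 with each library left out, and in KO mice -0.30 without the muscle-poor libraries, -0.42 with the muscle term and -0.39 to 0.54 with each library left out. The cause was not tested. Of 315 alternative values for 14 further genotype differences near 0, 40 had another sign and 0 were called.

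Deviations of same-numbered libraries from the group means correlated at -0.69 to 0.40 over 18 pairs, 5 of them above 0.1. In 13 of 36 comparisons a library was closest to its own number. Pairs of a control and a KO library cannot be the same mouse. Between ileum and colon, replicates 1, 2 and 3 correlated at -0.05, 0.16 and -0.08 in control mice. In KO mice the values were 0.19, 0.05 and 0.25. With so few pairs, these values cannot decide whether the tissues share mice. With the replicate block 6 and 7 of the 9 genes were called between tissues, as without it, and 18 and 16 other pathway genes.

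All alternatives were planned. Counts of 4 to 25 limit Hey1, and 3 mice a group limit the genotype comparisons.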
